A study of Homo sapiens with 6 samples.

Results

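The genes described here are 10 genes of the unfolded protein response, chosen by name as HSPA5, HSP90B1, XBP1, ATF6, ERN1, EIF2AK3, DNAJB9, HERPUD1, PDIA4 and SDF2L1. Each was found once by its symbol among the 78932 genes of the deposited count table, and all 10 passed the minimum of 10 counts in at least 3 of 6 libraries, which 18474 genes passed in all. The libraries were made from poly(A) RNA of T24, an established human urothelial carcinoma cell line. Of the 6 cultures, 3 were transfected with siNC, a non-targeting siRNA, and 3 with siTRIM28, siRNA against the chromatin corepressor and E3 ligase TRIM28. All cultures shared the cell line, the medium with serum and antibiotics, the transfection reagent and the batch label. The labels do not say which TRIM28 siRNA was used, so effects of 1 siRNA sequence and of TRIM28 loss cannot be told apart.

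The endoplasmic reticulum (ER) folds secreted and membrane proteins. When unfolded proteins build up there, 3 sensors in its membrane respond. IRE1, encoded by ERN1, cuts XBP1 mRNA so that it is spliced into the message of an active transcription factor, and it also degrades some other mRNAs. ATF6 moves to the Golgi, where the proteases encoded by MBTPS1 and MBTPS2 release its transcription factor part. PERK, encoded by EIF2AK3, phosphorylates the initiation factor eIF2α, which lowers protein synthesis and favours translation of ATF4. Their targets are ER chaperones such as HSPA5 and genes that remove misfolded proteins from the ER. Gene counts do not tell spliced from unspliced XBP1, cleaved from uncleaved ATF6 or the phosphorylation of PERK, so only mRNA levels are given below.

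Total counts lay between 11712623 and 14018052 per library. TRIM28 itself had 102, 101 and 108 CPM (read counts set relative to the library total, after TMM, which corrects for library composition) in siNC replicates 1, 2 and 3, and 9.28, 8.11 and 9.21 in siTRIM28. Of 11 epithelial and urothelial markers 3 passed the count minimum, led by KRT8 and KRT18, which overlap each other on opposite strands, whereas EPCAM, CDH1, UPK1B, UPK2 and UPK3A were at or near 0. The mesenchymal marker VIM had 1102 CPM in siNC and rose by 0.33 on the log2 scale in siTRIM28 (adjusted p = 2.56e-05, edgeR). The mesenchymal markers CDH2 (0.10) and FN1 (0.34) did not pass, and of the epithelial ones KRT7 (0.56, adjusted p = 0.0126, edgeR) and KRT8 (0.14, adjusted p = 0.0354, edgeR) rose while KRT18 (0.084) did not pass. The KRT8 call was lost in 8 of 15 alternatives. Summed over each list, 5 leukocyte markers lay between 0.072 and 0.470 CPM in siNC and between 0.0845 and 0.286 in siTRIM28 with CD3E at 0 throughout, and 3 endothelial markers lay between 0.433 and 0.504 against 0.714 and 1.01 with CDH5 at 0. The 4 fibroblast markers summed to between 0.784 and 1.44 CPM in siNC and between 2.64 and 3.97 in siTRIM28, of which COL1A1 made up most, while DCN, LUM and COL1A2 were near 0. Genes encoded in the mitochondrion took 4.95 to 5.29% of counts in siNC and 5.72 to 6.29% in siTRIM28. The part of these shifts in the results below was not tested.

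The response did not move as a block after TRIM28 silencing. Of the 10 genes, 5 fell (SDF2L1, ATF6, PDIA4, HSPA5 and XBP1), 2 rose (ERN1 and DNAJB9) and 3 did not pass the test (HSP90B1, EIF2AK3 and HERPUD1), by edgeR's quasi-likelihood test at an adjusted p under 0.05 over all genes tested. The background is wide: 41.8% of all tested genes passed the same test, 21.3% as higher and 20.5% as lower, and the share was 50.2% among genes with a mean of at least 50 counts and 59.7% among those with at least 1000. The median log2 fold change of the 10 genes was −0.20, against 0.015 for all genes tested. The CPM of the groups did not overlap for 8 of the 10 genes, which 52% of all tested genes also showed. With 3 cultures against 3, an exact two-sided permutation test of 1 gene cannot give a p under 0.1, and it gave 0.1 for each of these 8. The labels call the cultures biological replicates, and the p-values measure the spread between them. However, siNC replicates 1 and 2, and siTRIM28 replicates 2 and 3, lay much closer to each other than to the remaining culture of their group. Should these pairs not be independent, that spread is understated. In bulk RNA, fewer cells that express a gene and less RNA per cell cannot be told apart.

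**Figure D1:**
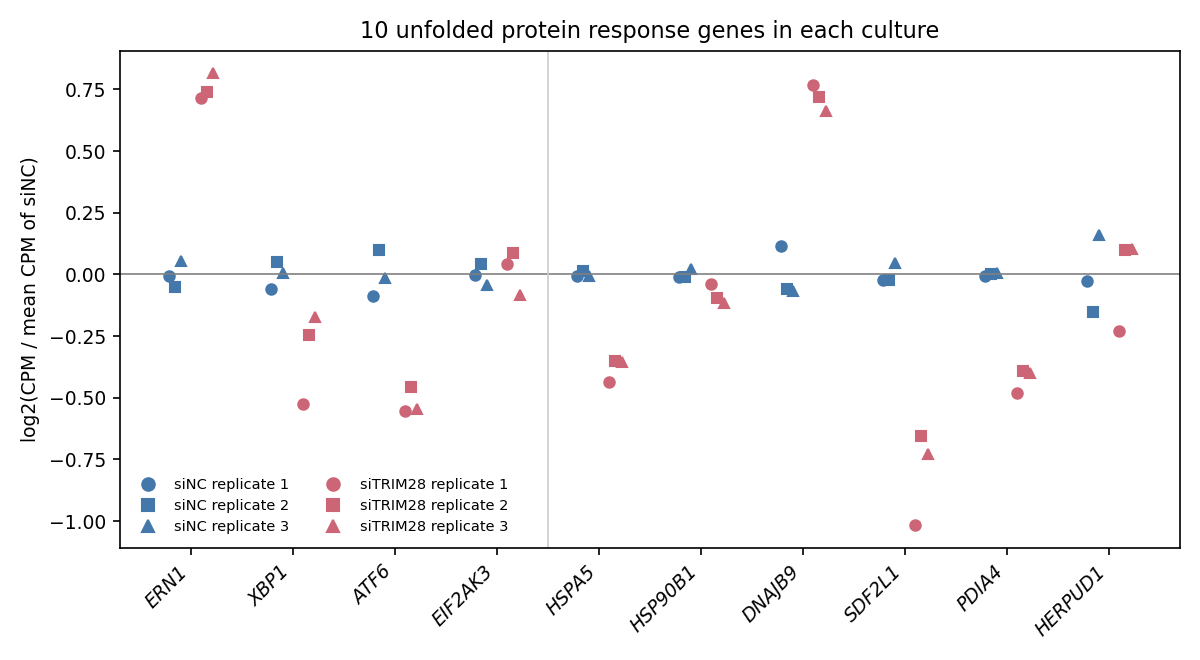
Each point is 1 culture, plotted as the log2 ratio of its CPM to the mean CPM of the 3 siNC cultures (vertical axis), for sensors and XBP1 on the left and chaperones and ER-associated degradation genes on the right. ERN1 and DNAJB9 lie between 0.66 and 0.82 in siTRIM28, SDF2L1 lies lowest at −1.02 in siTRIM28 replicate 1, and the EIF2AK3 and HERPUD1 groups overlap.

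The levels of these genes span a wide range, which is read here per length of the annotated exons because longer genes collect more reads. In siNC the order by mean CPM per kilobase was HSP90B1 (423), PDIA4 (244), HSPA5 (214), XBP1 (23.1), SDF2L1 (20.6), DNAJB9 (4.95), HERPUD1 (3.03), ATF6 (2.37), EIF2AK3 (1.18) and ERN1 (0.343). The most and the least abundant of them thus differed 1231-fold in siNC and 688-fold in siTRIM28. The order was the same in siTRIM28, and no 2 neighbours in it overlapped over the 3 cultures of either group. HSP90B1, PDIA4 and HSPA5 therefore stood at the top in both groups, also before division by length. The place of the sensors rests on that division, since by CPM in siNC ATF6 (33.8) and EIF2AK3 (24.4) lay above SDF2L1 (21.8), HERPUD1 (15.3) and DNAJB9 (12.6). So does the order of PDIA4 and HSPA5, since by CPM in siNC HSPA5 (1400) lay above PDIA4 (804). The length used for HSP90B1 is 13092 bases, the union of all its annotated exons. Such a length can exceed that of the message present, so the order and the fold range depend on the annotation. Before division by length, HSP90B1 ranked 9th of all tested genes in siNC by CPM, HSPA5 76th and PDIA4 159th. Together the 10 genes took 0.784 to 0.785% of all counts in siNC and 0.705 to 0.715% in siTRIM28, and HSP90B1, HSPA5 and PDIA4 made up 97.6 to 97.9% of their reads.

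**Figure D2:**
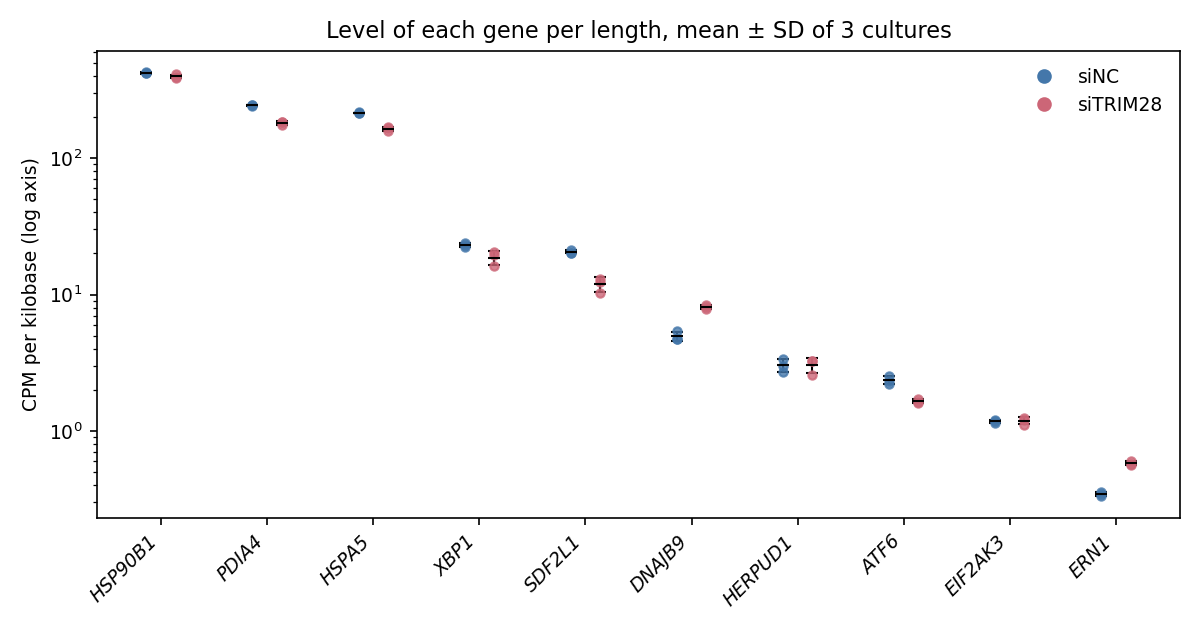
CPM per kilobase of annotated exons (vertical log axis) for the 10 genes in order of their siNC mean, with 1 point per culture, a horizontal mark for the mean and bars for the SD (n = 3). HSP90B1 is the highest at 423 and ERN1 the lowest at 0.343 in siNC, and the order is the same in siTRIM28.

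Among the sensors, ERN1 rose, ATF6 fell and EIF2AK3 did not pass the test. ERN1 (ENSG00000178607, GRCh38 chromosome 17, 64039080 to 64130144), which encodes the kinase and endoribonuclease IRE1, had 6.55, 6.36 and 6.82 CPM in siNC replicates 1, 2 and 3 and 10.8, 10.98 and 11.6 in siTRIM28. Every siTRIM28 culture lay above every siNC culture. The log2 fold change was 0.76 (SE 0.1001, adjusted p = 9.58e-05, same edgeR test), or 1.69-fold. ERN1 is the least abundant of the 10, with 87 to 151 counts per library.

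ATF6 (ENSG00000118217, chromosome 1, 161766298 to 161977574) encodes the sensor that becomes a transcription factor once cut in the Golgi. It had 31.8, 36.1 and 33.4 CPM in siNC and 23, 24.6 and 23.1 in siTRIM28, again without overlap. Its log2 fold change was −0.52 (SE 0.0700, adjusted p = 1.09e-04, same edgeR test), and 10.6% of all tested genes had a lower one. EIF2AK3 (ENSG00000172071, chromosome 2, 88556741 to 88691516), the gene of the sensor kinase PERK, had 24.3, 25.1 and 23.7 CPM in siNC and 25.1, 25.8 and 22.97 in siTRIM28. The groups overlapped, and the log2 fold change was 0.016 (SE 0.0685, adjusted p = 0.875, same edgeR test). An unnamed gene on the opposite strand within its span, ENSG00000225420, holds 32.4% as many counts. Whether reads were assigned by strand is not given, so part of the EIF2AK3 counts cannot be assigned.

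XBP1 (ENSG00000100219, chromosome 22, 28794555 to 28800569), whose mRNA IRE1 splices, moved opposite to ERN1. It had 67.1, 72.5 and 70.3 CPM in siNC and 48.6, 59.0 and 62.1 in siTRIM28. All siTRIM28 cultures lay below all siNC cultures, but siTRIM28 replicate 1 lay below the other two. The log2 fold change was −0.31 (SE 0.0817, adjusted p = 0.00970, same edgeR test), and it was −0.21 without siTRIM28 replicate 1, where it still passed. This library also stands apart over all genes: the chi-square of its counts against those of replicates 2 and 3 was 6.25 and 5.65 per degree of freedom, while these 2 gave 1.22 between them, and siNC replicate 3 stood apart from siNC replicates 1 and 2 in the same way at 4.17 and 4.22 against 1.08. Values without each library are given in the closing section.

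The HSP70 and HSP90 chaperones of the ER lumen parted. HSPA5 (ENSG00000044574, chromosome 9, 125234853 to 125241382) encodes BiP, the ER HSP70 that also binds the sensors. It had 1394, 1413 and 1393 CPM in siNC and 1035, 1096 and 1095 in siTRIM28, a gap far wider than the spread in either group. The log2 fold change was −0.38 (SE 0.0354, adjusted p = 5.98e-06, same edgeR test). HSP90B1 (ENSG00000166598, chromosome 12, 103930107 to 103953931) encodes GRP94, the ER HSP90. It had 5493, 5494 and 5611 CPM in siNC and 5391, 5181 and 5103 in siTRIM28. The groups did not overlap, yet the change was small at −0.083 (SE 0.0321, adjusted p = 0.0578, same edgeR test). It passed the threshold in 4 of 15 alternatives, among them the fit without siTRIM28 replicate 1 (−0.11, adjusted p = 9.26e-05, edgeR). MIR3652 on its own strand and ENSG00000293399 on the opposite one lie within its span with 21.98% and 21.93% as many counts, and whether these are the same reads is not stated.

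PDIA4, an ER disulfide isomerase, and SDF2L1, a partner of J-domain cochaperones of HSPA5, fell with HSPA5. PDIA4 (ENSG00000155660, chromosome 7, 149003062 to 149028523) had 801, 804 and 808 CPM in siNC and 577, 612 and 610 in siTRIM28, a log2 fold change of −0.42 (SE 0.0367, adjusted p = 3.39e-06, same edgeR test). SDF2L1 (ENSG00000128228, chromosome 22, 21642302 to 21644299) had 21.5, 21.5 and 22.5 CPM in siNC and 10.8, 13.9 and 13.2 in siTRIM28. Both genes were lower in every siTRIM28 culture, and SDF2L1 had the lowest log2 fold change of the 10 at −0.80 (SE 0.0896, adjusted p = 2.67e-05, same edgeR test). Of all tested genes, 4.46% had a lower one, against 14.1% for PDIA4, 16.2% for HSPA5 and 20.3% for XBP1. For the 2 that rose, 93.1% (ERN1) and 92.2% (DNAJB9) of all tested genes had a lower one. The SDF2L1 value was −0.69 without siTRIM28 replicate 1, the library where it was lowest.

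DNAJB9 and HERPUD1 serve ER-associated degradation. DNAJB9 (ENSG00000128590, chromosome 7, 108569867 to 108574760) encodes ERdj4, a J-domain cochaperone of HSPA5 that is known to hold IRE1 inactive. It had 13.6, 12.1 and 12 CPM in siNC and 21.4, 20.7 and 19.9 in siTRIM28, so that every siTRIM28 culture was higher. The log2 fold change was 0.72 (SE 0.0763, adjusted p = 1.78e-05, same edgeR test), or 1.64-fold. HERPUD1 (ENSG00000051108, chromosome 16, 56932142 to 56943557), a membrane protein of the degradation complex, had 15.1, 13.8 and 17.1 CPM in siNC and 13.1, 16.4 and 16.5 in siTRIM28. The groups overlapped, with a log2 fold change of −0.0049 (SE 0.107, adjusted p = 0.976, same edgeR test). With its spread between cultures, 10.9% of the mean in siNC and 12.7% in siTRIM28, small changes of HERPUD1 were not detectable.

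The ratio of the read counts of 2 genes within a culture does not depend on how libraries are scaled, and 9 such ratios were computed, of which 6 are plotted. HSPA5 had 0.253 ± 0.00450 reads per HSP90B1 read in siNC and in siTRIM28 0.206 ± 0.0123 (mean ± SD over 3 cultures). PDIA4 per HSPA5 moved least of the 9, from 0.575 ± 0.00527 to 0.558 ± 0.000856, so these chaperone messages fell almost in step. SDF2L1 per HSPA5 went from 0.0156 ± 0.000511 to 0.0117 ± 0.00114. DNAJB9 had 0.577 ± 0.0520 reads per SDF2L1 read in siNC and 1.66 ± 0.277 in siTRIM28. These are reads not divided by length, and per kilobase SDF2L1 remained above DNAJB9 in siTRIM28, at 11.9 ± 1.52 against 8.13 ± 0.297 CPM per kilobase. ERN1 per ATF6 went from 0.196 ± 0.0169 to 0.472 ± 0.0268, a rise of 1.27 on the log2 scale. XBP1 per ERN1 went from 10.7 ± 0.655 to 5.08 ± 0.495. The groups did not overlap in any of the 9 ratios, though XBP1 per ATF6 came close, with a highest siNC value of 2.113 and a lowest siTRIM28 value of 2.115. The 9 pairs were picked by hand, and the share over other gene pairs was not computed. Of single genes, 52% of those tested did not overlap either. Ratios such as DNAJB9 per SDF2L1 and ERN1 per ATF6 join a gene that rose to one that fell, so their separation follows from the values above. An exact two-sided permutation test gave p = 0.1 for each ratio, the smallest that 3 cultures against 3 allow. Adjustment over the 9 leaves it there.

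**Figure D3:**
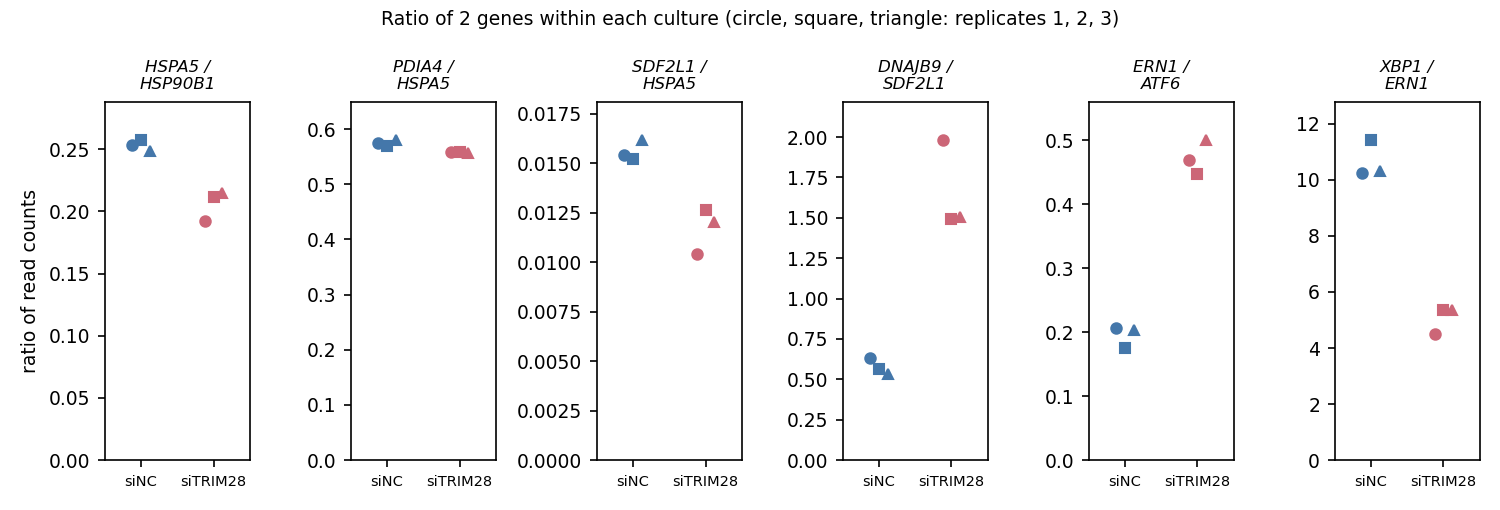
Ratio of the read counts of 2 genes within each culture (vertical axes, each from 0), with siNC in blue and siTRIM28 in red and 1 point per culture. DNAJB9 per SDF2L1 moves from between 0.533 and 0.634 to between 1.49 and 1.98, and PDIA4 per HSPA5 stays between 0.557 and 0.580 over all 6 cultures.

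The promoters are shown because the ER stress elements of these genes are the sites through which ATF6 and XBP1 are known to act. RefSeq promoters on GRCh38.p14, from 250 bases before to 50 bases after the start, were matched by symbol for all 10 genes and searched on both strands. The element ERSE, CCAAT and CCACG with 9 bases of any kind between them, was found in HSPA5, HSP90B1 and XBP1, and in 0.0806% of 27305 promoters of the same length. ERSE-II, ATTGG and CCACG with 1 base between them, was found in HERPUD1 and SDF2L1 and in 0.0549% of all promoters. The UPRE core TGACGTGG was in none of the 10 and in 0.795% of all. The short element CCACG, which is also part of ERSE and ERSE-II, was in 8 of the 10 and in 37.9% of all, and was absent from the windows of ATF6 and ERN1. A match describes the letters of the window and says nothing of binding. The lines give the ERSE and ERSE-II matches, in capitals, of the first 5 genes and the CCACG matches, in capitals, of DNAJB9 and PDIA4, with up to 30 bases on either side, 5′ to 3′ on the strand of the gene. Other CCACG matches are not marked, and the match in EIF2AK3, which lies after the start, is not shown.
HSPA5, chr9:125241361-125241439, minus strand: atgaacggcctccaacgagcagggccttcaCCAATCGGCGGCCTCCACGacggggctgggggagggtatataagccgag
HSP90B1, chr12:103930186-103930369, plus strand: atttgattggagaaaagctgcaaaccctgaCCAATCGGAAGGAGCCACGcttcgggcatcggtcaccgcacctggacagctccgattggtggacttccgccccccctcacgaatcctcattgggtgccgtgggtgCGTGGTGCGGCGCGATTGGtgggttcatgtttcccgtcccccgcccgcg
XBP1, chr22:28800573-28800651, minus strand: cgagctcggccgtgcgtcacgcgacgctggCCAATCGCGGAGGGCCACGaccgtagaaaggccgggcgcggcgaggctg
HERPUD1, chr16:56931995-56932065, plus strand: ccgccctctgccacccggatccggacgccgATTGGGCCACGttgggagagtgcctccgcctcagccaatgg
SDF2L1, chr22:21642084-21642154, plus strand: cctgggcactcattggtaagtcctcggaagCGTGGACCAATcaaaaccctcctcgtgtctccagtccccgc
DNAJB9, chr7:108569770-108569861, plus strand: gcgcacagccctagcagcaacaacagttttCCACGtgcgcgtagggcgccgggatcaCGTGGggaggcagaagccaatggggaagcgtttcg
PDIA4, chr7:149028493-149028557, minus strand: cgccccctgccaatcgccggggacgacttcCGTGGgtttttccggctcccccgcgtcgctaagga

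None of the 5 genes with ERSE or ERSE-II rose. Of the 3 with ERSE, HSPA5 and XBP1 fell and HSP90B1, which holds 2 matches, stood at −0.083 and did not pass the test. Of those with ERSE-II, SDF2L1 fell by 0.80 on the log2 scale while HERPUD1 stood at −0.0049. DNAJB9, which rose, and PDIA4, which fell, hold only CCACG among these motifs. Outside the 10 genes, 11 tested genes had ERSE in their promoter, of which 4 were lower and none was higher in siTRIM28 (edgeR's quasi-likelihood test, adjusted p under 0.05) at a median log2 fold change of −0.12. Of the 8 tested genes with ERSE-II outside the 10, 4 were lower, 3 were higher and 1 was not called. Of the 109 with the UPRE core, 21 were lower, 18 were higher and 70 were not called, at a median of 0.0082. Over all genes tested 20.5% were lower and 21.3% were higher. Some genes with these motifs are also counted in the lists below, so these counts are not separate from those. They include CALR, CANX, CRELD2 and ERO1B with ERSE and HYOU1 with ERSE-II. ALG12 and CRELD2, both with ERSE, overlap each other on opposite strands and may share the match.

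The other genes of the response were read from 6 lists by role, with 76 of 82 genes passing the count minimum. Of the 76, 30 fell and 19 rose by the same edgeR test, at a median log2 fold change of −0.11. In the list of chaperones 12 of 18 genes fell, and in that of the PERK arm 11 of 13 rose. All lists are to be read against the 41.8% of genes called over the whole table, 20.5% as lower and 21.3% as higher. The share was 50.2% among genes with a mean of at least 50 counts and 59.7% with at least 1000. Several chaperones, such as CALR and PPIB, have a mean above 1000 counts.

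Among relatives and activators of the sensors, 4 of 6 tested genes fell and none rose, but 2 fell with DESeq2 or without siNC replicate 1. CREB3, 1 of the 4, lost its call in 6 of 15 alternatives. MBTPS1, the site-1 protease that cuts ATF6 and the SREBP factors of cholesterol synthesis, went from 76.1, 76.2 and 68.4 CPM in siNC to 41.6, 42.6 and 49.2 in siTRIM28 (log2 fold change −0.73, SE 0.0740, adjusted p = 1.22e-05, edgeR). It was lower in every siTRIM28 culture, as ATF6 was. MBTPS2, the site-2 protease, stood at −0.40 (adjusted p = 0.0255, edgeR), but it did not pass without siNC replicate 1 or 3, without siTRIM28 replicate 2 or 3, or with DESeq2, and its value without single libraries ran from −0.54 to −0.31. CREB3L2, an ATF6-like transcription factor of the ER membrane, fell by 0.84 on the log2 scale, with 14.8 ± 0.748 CPM in siNC and 8.32 ± 1.53 in siTRIM28 (adjusted p = 1.64e-04, edgeR). ATF6B, the paralogue of ATF6, stood at −0.17 (adjusted p = 0.0705, edgeR).

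Of 18 other ER chaperones and folding enzymes, 12 fell, 1 rose and 5 did not pass, at a median log2 fold change of −0.22. P4HB, a disulfide isomerase and subunit of collagen prolyl hydroxylase, went from 375, 384 and 377 CPM to 206, 202 and 205 (log2 fold change −0.89, adjusted p = 1.51e-08, edgeR). DNAJC3, a J-domain cochaperone of HSPA5 also known as an inhibitor of PERK, fell from 68.3 ± 2.69 to 42.9 ± 3.73 CPM (−0.67). SIL1, the nucleotide exchange factor of HSPA5, fell from 95.9 ± 2.39 to 54.3 ± 1.19 CPM (−0.82, adjusted p = 2.12e-07, edgeR), though MATR3, with 996% as many counts and a log2 fold change of −0.0025, overlaps it on the opposite strand. Against these, ERO1A, the oxidase that recharges disulfide isomerases, rose from 125 ± 2.49 to 175 ± 10.4 CPM (0.49, adjusted p = 1.22e-05, edgeR).

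Of 18 tested genes of ER-associated degradation, 6 fell, 4 rose and 8 did not pass. These 10 of 18 called stand beside 41.8% of all genes tested and 50.2% of those with a mean of at least 50 counts. ERLEC1, a lectin that brings glycoproteins to the degradation complex, fell by 1.03 on the log2 scale, from 57.2 ± 1.91 to 28.1 ± 0.568 CPM (adjusted p = 1.45e-07, edgeR), and OS9, another such lectin, fell by 0.56 on the log2 scale. DERL2, a channel protein of the complex, had −0.62. However, MIS12 overlaps it on the opposite strand with 165% as many counts and a log2 fold change of −0.74. UFD1, a cofactor of the segregase VCP, rose from 46.3 ± 2.19 to 86.5 ± 2.53 CPM (0.90, adjusted p = 2.57e-07, edgeR). SELENOS, a VCP anchor of the ER membrane, rose by 0.50 and UBE2G2, a ubiquitin-conjugating enzyme, by 0.32. SEL1L, the scaffold of the ligase complex, fell by 0.29 on the log2 scale (adjusted p = 7.87e-04, edgeR), while its partner SYVN1 had −0.11 (adjusted p = 0.395, edgeR). FAU overlaps SYVN1 on the same strand with 1294% as many counts and a log2 fold change of −0.12. MRPL49 overlaps it on the opposite strand with 99.5% as many counts and a log2 fold change of −0.29. The SYVN1 value may thus not be its own.

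Of 17 genes for translocation into the ER and transport out of it, 6 fell, 1 rose and 10 did not pass. These 7 of 17 called lay near the 41.8% of all genes tested. The lower genes numbered 3 with DESeq2 and 4 to 5 with each library left out. SEC61A1 and SSR4 lost their calls in 10 and 7 of 15 alternatives. RUVBL1 overlaps SEC61A1 and IDH3G overlaps SSR4 on the opposite strand, with 409% and 305% as many counts. SEC23B, a coat protein of COPII vesicles, fell by 1.17 on the log2 scale, from 35.8 ± 1.56 to 15.9 ± 1.07 CPM (adjusted p = 2.42e-07, edgeR). SEC63, the translocon partner that recruits HSPA5, fell by 0.84 and SRPRA, a subunit of the signal recognition particle receptor, by 0.53 on the log2 scale, with FOXRED1 on the opposite strand of SRPRA at 40.2% as many counts. SEC61G, a small subunit of the translocon, rose by 0.43 (adjusted p = 0.00164, edgeR).

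Most of the PERK arm list was higher in siTRIM28. Of 13 tested genes, 11 rose, 1 fell and 1 did not pass, at a median log2 fold change of 0.39, although EIF2AK3 itself did not pass the test. DESeq2 called 7 of the 13 as higher, the fit with close pairs summed 8, and fits with each library left out 8 to 11. ATF4, the transcription factor whose translation PERK favours, had 189, 187 and 177 CPM in siNC and 303, 280 and 276 in siTRIM28 (log2 fold change 0.64, SE 0.0478, adjusted p = 1.10e-06, edgeR). DDIT3, which encodes the stress factor CHOP, had 26.9, 31.9 and 31.3 CPM in siNC and 62.6, 54.1 and 53.0 in siTRIM28 (0.91, SE 0.0852, adjusted p = 6.07e-06, edgeR). MARS1, which rose by 0.59, and MBD6 overlap DDIT3 on the opposite strand with 206% and 40.5% as many counts. ENSG00000285133, which rose by 1.07, overlaps it on the same strand with 14.15% as many. Part of the DDIT3 counts thus cannot be assigned. PPP1R15A, the GADD34 subunit that directs a phosphatase to eIF2α, had 131, 132 and 134 CPM in siNC and 254, 278 and 262 in siTRIM28 (1.00, SE 0.0445, adjusted p = 2.25e-08, edgeR). The groups did not overlap for ATF4, DDIT3 or PPP1R15A. CEBPB, a bZIP factor that pairs with CHOP, rose by 0.83 on the log2 scale. CEBPB-AS1, which rose by 0.77, overlaps it on the opposite strand with 26.1% as many counts. EIF2S1, which encodes eIF2α, stood at 0.11 (adjusted p = 0.0478, edgeR), a call lost in 10 of 15 alternatives. ATF3 had −0.52 at 7.59 ± 0.963 CPM in siNC (adjusted p = 0.0186, edgeR), a call lost without siNC replicate 2, siTRIM28 replicate 2 or siTRIM28 replicate 3, with values from −0.67 to −0.42. TRIB3, the tested gene of the list that did not pass, had −0.24 (adjusted p = 0.1485, edgeR). It was lower in every siTRIM28 culture. CHAC1 did not reach the count minimum. Kinases other than PERK also phosphorylate eIF2α, and these counts do not tell them apart.

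Transcripts known as substrates of IRE1 decay did not move together. Of 4 tested, SPARC, a matrix protein, rose by 0.29 and BLOC1S1, a lysosome positioning factor, by 0.24, while SCARA3, a scavenger receptor, fell by 0.83 on the log2 scale (adjusted p = 8.85e-07, edgeR). COL6A1 stood at −0.056 (adjusted p = 0.608, edgeR). The BLOC1S1 call was lost without siNC replicate 1 or 2, with values from 0.16 to 0.29, and a longer gene on its strand that covers it, ENSG00000258311, has 97.9% as many counts.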

How the data were processed

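Poly(A) RNA of 3 siNC and 3 siTRIM28 cultures of T24 cells was sequenced from a stranded kit. The submitters' processing notes name fastp 0.23.1, STAR 2.7.6a and featureCounts with GRCh38. The annotation release, strand setting and duplicate handling are not given in the sources used here, so overlapping genes may share reads. The authors deposited raw read counts for 78932 genes, without normalization, and a second table of normalized values for genes they selected as differentially expressed, which was not used. Columns were matched to cultures by group and replicate number.

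Counts were scaled by TMM and compared with edgeR 4.0.16 (glmQLFit, glmQLFTest) in R 4.3.3 over the 18474 genes that reached 10 counts in 3 or more libraries, with Benjamini-Hochberg adjustment over all of them. A log2 fold change is siTRIM28 minus siNC, and its SE is the change divided by the square root of F. Exact permutation tests used log2 CPM with a prior count of 2, or the log2 ratio of 2 genes. Single CPM values carry counting error as well as culture error, and the totals of 11712623 to 14018052 counts limit precision for rare genes such as ERN1. In counts simulated for this comparison over 18474 genes, a log2 change of 0.8 was recovered for 149 of 200 genes and 9 unchanged genes were called. Only these 200 genes were changed there, while 41.8% of genes passed in the data, so the recovered share does not give the power here. Smaller changes were not simulated.

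The 10 genes, the 6 lists, the cell markers and the motifs were chosen with earlier results of these data known. Named from each list were up to 3 genes in each direction with the largest change among those called with a mean of at least 50 counts, plus ATF4, DDIT3, ATF6B, MBTPS1, MBTPS2, PPP1R15A, EIF2S1, SYVN1 and SEL1L. COL6A1, CREB3, SEC61A1, SSR4, TRIB3 and CHAC1 were named after their values were seen. Alternatives were 3 other scalings (RLE, upper-quartile, total-count), other tools (limma 3.58.1 with voom, DESeq2 1.42.0), a looser and a stricter count filter, a block on the replicate number, fits that leave out single libraries, and a fit in which close replicate pairs were summed. Python 3.11.15, pandas 2.3.3, numpy 2.4.6, scipy 1.17.1 and matplotlib 3.10.9 made tables and figures.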

Additional observations from a re-analysis of the deposited data

How the results depend on the processing

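The 7 calls among the 10 genes kept their direction and stayed past the threshold under all 15 alternatives, and HSP90B1 also passed with RLE scaling (−0.088), limma-voom (−0.082), no filter (−0.092) and without siTRIM28 replicate 1 (−0.11), so 7 or 8 genes were called. The median of the 10 ran from −0.22 to −0.16, and from −0.24 to −0.16 with each library left out. Log2 fold changes with each library left out ran from −0.41 to −0.35 for HSPA5, −0.39 to −0.21 for XBP1, −0.57 to −0.48 for ATF6, 0.71 to 0.78 for ERN1, 0.68 to 0.77 for DNAJB9, −0.45 to −0.40 for PDIA4, −0.87 to −0.69 for SDF2L1, and −3.58 to −3.49 for TRIM28. EIF2AK3 and HERPUD1 lay so near 0 that their sign turned: HERPUD1 had 0.029 with upper-quartile and 0.014 with total-count scaling and −0.083 to 0.11 with libraries left out, and EIF2AK3 −0.018 to 0.050 (−0.0036 without siNC replicate 3).

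In the wider lists, DESeq2 gave 2 lower sensor relatives, 3 lower translocation genes and 7 higher PERK arm genes. No filter added 1 higher sensor relative. Summed close pairs left 8 higher and 0 lower PERK arm genes and 1 higher IRE1 substrate. With each library left out, lower sensor relatives numbered 2 to 4, higher chaperones 1 to 2, higher translocation genes 1 to 2 and lower ones 4 to 5. In the same fits higher PERK arm genes numbered 8 to 11, lower ones 0 to 1 and higher IRE1 substrates 1 to 2. The causes were not tested. Over all genes 5878 (DESeq2) to 8018 (no filter) were called, against 7723, and 6367 to 8252 with libraries left out. Upper-quartile scaling moved the median of all genes most of the scalings, to 0.049.

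With the replicate block 7 of the 10 genes were called, 7910 genes in all and 2 higher translocation genes. The numbers did not pair the samples, since no label gives a shared origin and same-numbered cultures deviated together with correlations of 0.0658, −0.0242 and 0.0506 over 12828 genes. At this depth ERN1, HERPUD1, DNAJB9 and SDF2L1 rest on 87 to 299 reads per library. Both close replicate pairs differed little more than by sampling noise, at a chi-square of 1.08 and 1.22 per degree of freedom. Their small p-values (chi-square p = 2.8e-14 and 2.7e-96) rest on 20704 and 20698 genes and do not show that these cultures were independent. With these pairs summed, 7 of the 10 genes and 5935 genes in all were called.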

Other observations

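Transcripts that start beside or overlap these genes did not follow them in each case. EIF2AK3-DT, which overlaps EIF2AK3 on the opposite strand, was lower in siTRIM28 (log2 fold change −1.02, SE 0.272, adjusted p = 0.0104, edgeR) with only 7 to 27 counts per library, while EIF2AK3 stood at 0.016. DNAJC3-DT, which overlaps DNAJC3 on the opposite strand, had 0.19 (adjusted p = 0.118, edgeR), while DNAJC3 fell by 0.67 on the log2 scale. SNHG4, within the span of SIL1 on the opposite strand, rose by 0.84 while SIL1 fell by 0.82. Other transcripts moved with the gene they overlap on the opposite strand. CEBPB-AS1 rose by 0.77 with CEBPB at 0.83, and VIM-AS1 by 0.35 with VIM at 0.33. DDIT4-AS1 rose by 0.64 with DDIT4, of the PERK arm list, at 0.70. MIS12 stood at −0.74 with DERL2 at −0.62.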
